A study of Mus musculus with 6 samples.

Results

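The replication licensing genes are 10 genes taken by name: *Mcm2*, *Mcm3*, *Mcm4*, *Mcm5*, *Mcm6*, *Mcm7*, *Mcm10*, *Cdc6*, *Cdt1* and *Gmnn*. All 10 were found among the 41388 gene identifiers counted, and all 10 passed the filter on low counts. They were measured by bulk RNA-seq in primary chondrocytes from femoral head cartilage of male mice aged 21 days, kept in culture with fetal bovine serum for 2 days and given no treatment. The knockout samples came from 3 homozygous *Postn*-/- mice, which carry the germline tm1Jmol allele of the gene for the matricellular protein periostin, and the control samples from 3 wild-type (*wt*) littermates, all on the mixed B6/129 background. The question asked was which transcripts differ between the genotypes at baseline. A culture that holds fewer cycling cells and one whose cycling cells each hold less RNA cannot be told apart in bulk samples.

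Before a cell copies its DNA, every origin of replication is licensed once. The origin recognition complex, with CDC6 and CDT1, loads rings made of MCM2 to MCM7 onto DNA in G1, and these rings become the replicative helicase when origins fire in S phase. Geminin, the product of *Gmnn*, binds CDT1 and blocks further loading, and MCM10 helps to turn the loaded helicase on. These genes are transcribed mainly in cells that enter the cycle, under E2F transcription factors, and growth cartilage holds both proliferating and non-dividing chondrocytes.

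The libraries held between 20587640 and 26572260 counted reads. The members were counted with 170 to 4762 reads per sample, well above the counting floor of 3 reads, which is 0.113 to 0.146 CPM (counts scaled to a common library size). The targeted gene *Postn* had 4.66, 4.27 and 5.67 CPM in *Postn*-/- against 10.1, 10.3 and 6.90 in *wt*, lower in each knockout sample though not absent. On the first principal component *wt* replicate 1 lay at 47.7 and the other 5 samples between -17.4 and -0.02, so the members and the gene lists are also given without it. The chondrocyte markers were abundant in all samples, with *Col2a1* between 8271 and 18081 CPM. Blood markers summed to 28.2 to 47.3 CPM in *Postn*-/- and 18.6 to 32.3 in *wt*, and endothelial markers to 5.99 to 9.48 and 4.19 to 8.10.

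Promoters are shown first, because the members are known as E2F targets and because their levels moved together across the samples. RefSeq promoter windows (GRCm38.p6, from 250 bases before to 50 after the start site) were matched for 8 of the 10 members, all but *Mcm4* and *Gmnn*. They were searched on both strands for the E2F words TTTCCCGC, TTTGGCGC, TTTGCCGC and TTTCGCGC. At least 1 word was present for 6 of the 8 genes, *Mcm3*, *Mcm5*, *Mcm6*, *Mcm7*, *Cdc6* and *Cdt1*, and in 2.26% of all 32851 promoter windows. In *Mcm3* and *Cdt1* the words lay after the start site, at 20 and 39 bases in *Mcm3* and at 33 bases in *Cdt1*, and *Mcm7* had a further one there at 17 bases. For the other 4 genes the last 180 bases before the start site follow, read along the gene's own strand, with the E2F words in capitals. In *Mcm5* the capitals are a pair of overlapping words on opposite strands, and *Mcm6* has such a pair and a further word closer to the start.
Mcm5, chr8:75109329-75109508, plus strand: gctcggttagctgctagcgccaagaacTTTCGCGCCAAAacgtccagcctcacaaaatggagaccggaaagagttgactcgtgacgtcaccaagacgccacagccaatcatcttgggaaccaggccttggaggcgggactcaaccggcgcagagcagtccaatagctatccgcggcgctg
Mcm6, chr1:128359706-128359885, minus strand: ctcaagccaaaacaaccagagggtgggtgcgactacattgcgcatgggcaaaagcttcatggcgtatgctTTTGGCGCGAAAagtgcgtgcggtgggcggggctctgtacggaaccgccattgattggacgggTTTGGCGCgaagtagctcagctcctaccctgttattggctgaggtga
Mcm7, chr5:138171884-138172063, minus strand: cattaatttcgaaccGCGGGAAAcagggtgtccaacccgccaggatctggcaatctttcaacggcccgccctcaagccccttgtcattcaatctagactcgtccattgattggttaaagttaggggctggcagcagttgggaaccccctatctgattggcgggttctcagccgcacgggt
Cdc6, chr11:98907971-98908150, plus strand: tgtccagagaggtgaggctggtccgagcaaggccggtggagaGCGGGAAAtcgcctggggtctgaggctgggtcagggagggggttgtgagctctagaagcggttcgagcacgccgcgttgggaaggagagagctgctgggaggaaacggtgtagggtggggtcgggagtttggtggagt

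A second word, CCAAT, the letters of the NF-Y box, was present for 6 of the 8 genes, all except *Cdc6* and *Cdt1*, and in 37.4% of all windows. The word TTTGAA, the cell cycle homology region known from G2/M genes, was present only in *Mcm2* among the 8, and in 17.9% of all windows. *Mcm2* and *Mcm10* held none of the E2F words. A match describes the letters in the window and was not tested as a binding site.

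Per kilobase of the deposited gene length, 5 of the 6 subunits of the MCM ring were the most abundant members. Their mean level over the 6 samples, in the deposited RPKM (reads scaled to library size and this gene length), was 24.9 for *Mcm3*, 23.05 for *Mcm5*, 22.7 for *Mcm2*, 22.5 for *Mcm4* and 19.9 for *Mcm6*. The order among these 5 changed from sample to sample, except that *Mcm3* was above *Mcm4* in all 6 samples, by a ratio of 1.02 to 1.18. *Mcm7*, at 10.5 RPKM, was the lowest subunit in each sample and made up 7.82% to 9.08% of the summed RPKM of the ring. Its exons overlap those of *Ap4m1*, *Cops6* and the microRNA genes *Mir25* and *Mir93* over 12.6% of their bases. Of the 50-base stretches of its transcripts, 23.3% also occur in other genes on either strand. Ambiguous reads were not counted, so the level of *Mcm7* may be understated. *Gmnn* was at 11.1 RPKM, close to *Mcm7*, with a ratio of *Mcm7* to *Gmnn* between 0.824 and 1.03. The loading factors were lower, *Cdt1* at 6.01 and *Cdc6* at 3.61 RPKM, and *Mcm10* was lowest at 1.77. In every sample the order was *Gmnn*, *Cdt1*, *Cdc6*, *Mcm10*, from high to low. These comparisons between genes rest on the deposited gene lengths, and with other lengths the order could change. The lengths differ from the exon bases in GENCODE M21 for *Mcm2* (3370 against 6956), *Mcm5* (3422 against 3993) and *Cdt1* (2189 against 3140).

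In the comparison of genotypes the 10 members had lower fitted levels in *Postn*-/- than in *wt*, with log2 fold changes from -0.93 for *Cdc6* to -0.11 for *Mcm2* and a median of -0.66. Over all 14533 genes tested the median was 0.0042, and 49.2% were below 0. Of the 10 members 0 passed an adjusted p of 0.05 in edgeR's quasi-likelihood test, Benjamini-Hochberg adjusted over all genes. This threshold was passed by 0.0138% of all genes, and by 0.00688% as lower. At an unadjusted p of 0.05 only *Gmnn* was lower, 1 of 10 against 2.35% of all genes lower and 6.3% in either direction. That value was lost when *wt* replicate 1, *Postn*-/- replicate 1 or *Postn*-/- replicate 3 was left out, each time leaving 0 members. The count was 7 of 10 without *wt* replicate 2 and 5 of 10 without *Postn*-/- replicate 2, when 8.71% and 7.73% of all genes had such a p in either direction. By method it was 5 of 10 with DESeq2's Wald test and 7 of 10 both in voomWithQualityWeights with surrogate variables and in edgeR without a filter. In these fits 6.01%, 12.9% and 5.24% of all genes had such a p. *Gmnn* was also the only member whose genotypes did not overlap, with *Postn*-/- lower, against 6.57% of all genes apart in that direction and 7.03% in the other. The members moved together across the samples, so 10 lower values are not 10 separate observations.

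The fitted differences rested to a large extent on *wt* replicate 1, which held the highest level of each of the 10 members, against 24.6% of all genes tested. Without it the median log2 fold change of the members was -0.15, the values ran from -0.36 to 0.13, and those of *Mcm2* and *Cdt1* turned positive (0.13 and 0.12). *Postn*-/- replicate 3 was at the other end, the lowest sample for 9 of the 10 members, against 16.7% of all genes, with *Mcm2* the exception. *Postn*-/- replicate 2 was the highest knockout sample for all 10 members, against 35.7% of all genes. It exceeded both *wt* replicates 2 and 3 for 5 members, *Mcm2*, *Mcm5*, *Mcm6*, *Cdc6* and *Cdt1*.

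**Figure D1:**
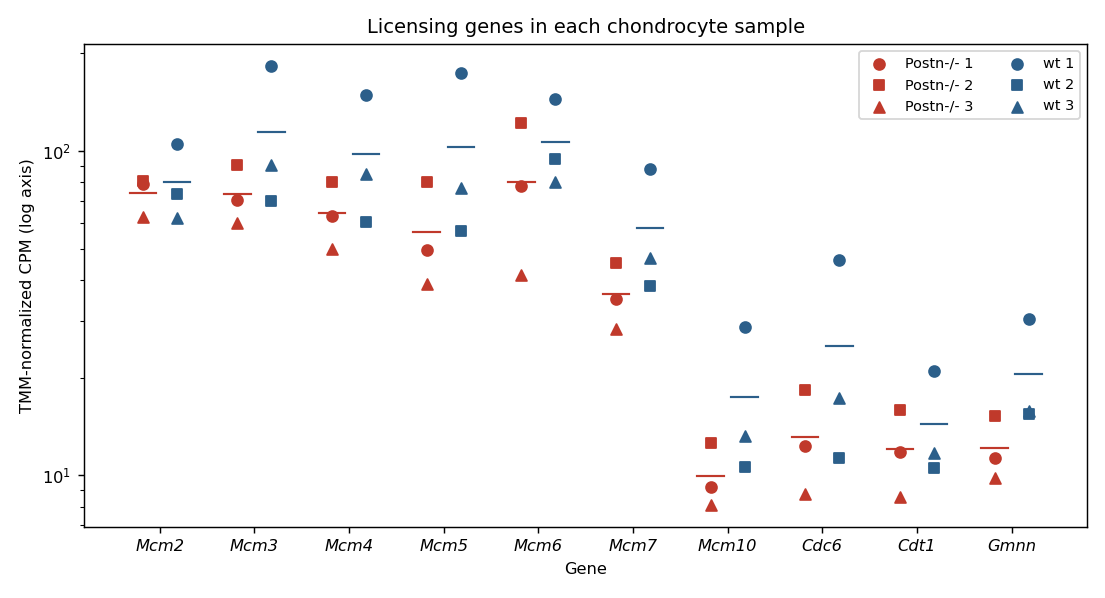
TMM-normalized CPM (log axis) of the 10 licensing genes in the 3 *Postn*-/- samples (red) and the 3 *wt* samples (blue), with circles, squares and triangles for replicates 1, 2 and 3 and bars for the group means. *wt* replicate 1 is highest for all 10 genes, and *Postn*-/- replicate 3 is lowest for all except *Mcm2*.

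*Mcm2* (chr6:88883474-88898780, with all gene positions in GRCm38) encodes a ring subunit that also binds histones. It was at 78.9, 81.1 and 62.5 normalized CPM in *Postn*-/- replicates 1, 2 and 3 and at 104.9, 73.5 and 62.3 in the *wt* replicates. The other 2 *wt* samples lay within or just under the range of the knockout samples, and the highest sample was 1.68 times the lowest, the narrowest span of the 10 members. The edgeR test gave a log2 fold change of -0.11 (standard error 0.20, adjusted p = 0.893, unadjusted p = 0.586).

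*Mcm3* (chr1:20802968-20820312) and *Mcm4* (chr16:15623897-15637400) encode further subunits of the ring. *Mcm3* was at 70.9, 90.7 and 59.9 CPM in *Postn*-/- against 183, 70.2 and 90.8 in *wt*. *Mcm4* was at 63.2, 80.4 and 50.04 CPM in *Postn*-/- against 149, 60.5 and 85.1 in *wt*. For both genes *wt* replicate 2 lay among the knockout samples. The log2 fold change stood at -0.64 for *Mcm3* (standard error 0.34, adjusted p = 0.717 from edgeR) and -0.61 for *Mcm4* (standard error 0.32, adjusted p = 0.717 from edgeR).

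*Mcm5* (chr8:75109569-75128439) and *Mcm6* (chr1:128331590-128359664) had the widest spans of the ring subunits. *Mcm5* was at 49.5, 80.4 and 38.9 CPM in *Postn*-/- against 174, 56.8 and 76.9 in *wt*, a 4.48-fold span over the 6 samples. *Mcm6* was at 78.1, 122 and 41.4 CPM in *Postn*-/- against 145, 94.6 and 80.2 in *wt*, a 3.50-fold span. *Postn*-/- replicate 2 was above *wt* replicates 2 and 3 for both. The log2 fold change stood at -0.87 for *Mcm5* (standard error 0.43, adjusted p = 0.717 from edgeR) and -0.40 for *Mcm6* (standard error 0.37, adjusted p = 0.797 from edgeR).

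*Mcm7* (chr5:138164583-138172422) was at 35.04, 45.1 and 28.2 CPM in *Postn*-/- against 87.8, 38.4 and 46.9 in *wt*. In edgeR it had a log2 fold change of -0.68 (standard error 0.31, adjusted p = 0.717, unadjusted p = 0.0627). *Mcm10* (chr2:4989714-5012791), the activating factor that is not part of the ring, was at 9.20, 12.5 and 8.10 CPM in *Postn*-/- against 28.6, 10.6 and 13.2 in *wt*. Both genes had *wt* replicate 2 below *Postn*-/- replicate 2, so the genotypes overlapped through that single pair of samples. For *Mcm10* edgeR gave a log2 fold change of -0.81 (standard error 0.37, adjusted p = 0.717, unadjusted p = 0.0586).

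*Cdc6* (chr11:98907801-98923940), the ATPase that joins the origin recognition complex to the ring, was at 12.3, 18.3 and 8.72 CPM in *Postn*-/- against 46.2, 11.3 and 17.3 in *wt*. It had the widest span of the members, 5.30-fold, and *wt* replicates 2 and 3 lay within the range of the knockout samples. Its log2 fold change of -0.93 (standard error 0.50, adjusted p = 0.717 from edgeR) was -0.13 without *wt* replicate 1. *Cdt1* (chr8:122568015-122573554), which brings the ring to DNA, was at 11.8, 15.9 and 8.58 CPM in *Postn*-/- against 21.0, 10.5 and 11.7 in *wt*. The knockout samples of *Cdt1* also spanned *wt* replicates 2 and 3, with a log2 fold change of -0.25 (standard error 0.31, adjusted p = 0.842 from edgeR).

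*Gmnn* (chr13:24751845-24761923), the inhibitor of licensing, was at 11.3, 15.3 and 9.82 CPM in *Postn*-/- against 30.3, 15.4 and 15.8 in *wt*. The means were 12.1 ± 2.81 and 20.5 ± 8.48 (SD, n = 3 each). All 3 knockout samples were below all 3 *wt* samples, though *Postn*-/- replicate 2 and *wt* replicate 2 had a log2 ratio of only -0.02. The edgeR test gave a log2 fold change of -0.76 (standard error 0.30, adjusted p = 0.717, unadjusted p = 0.0337). Without *wt* replicate 1 it was -0.36 (unadjusted p = 0.122 from edgeR).

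**Figure D2:**
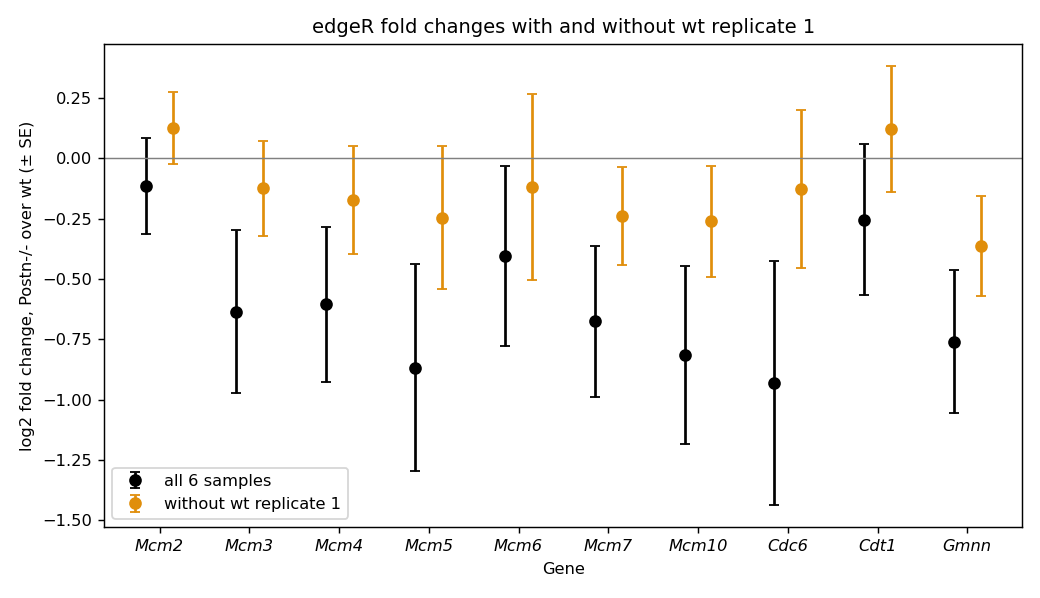
Log2 fold change of each licensing gene, *Postn*-/- over *wt*, from edgeR with all 6 samples (black) and without *wt* replicate 1 (orange), with bars of 1 standard error. All 10 values lie below 0 with all samples, and without *wt* replicate 1 they run from -0.36 to 0.13.

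Read by replicate number, the members split in the same way nearly throughout. Between the samples numbered 1, all 10 members were lower in *Postn*-/-, by -1.91 (*Cdc6*) to -0.41 (*Mcm2*) on the log2 scale. Between those numbered 3, 9 members were lower, with *Cdc6* at -0.99, and *Mcm2* was level at 0.0043. Between those numbered 2 the direction was the other way for 9 members, up to 0.69 for *Cdc6*, and only *Gmnn* was below 0, at -0.02. Same-numbered samples are different mice, and the single ratios were not tested. With the replicate number as a block in edgeR, 0 of the 10 members passed the adjusted threshold. In that fit 1 member had an unadjusted p of 0.05 or less, against 8.17% of all genes in either direction.

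The members kept fixed proportions to different degrees. The ratios of *Mcm3* to *Mcm4*, *Mcm4* to *Mcm7* and *Mcm3* to *Mcm7* varied least of the 45 pairs of members, with a highest sample 1.15, 1.15 and 1.16 times the lowest. *Mcm2* was the loosest, with a ratio to *Cdc6* that varied 3.16-fold and to *Mcm5* 2.67-fold. As a share of the summed RPKM of the ring, *Mcm2* ran from 13.9% in *wt* replicate 1, where *Mcm5* reached 22.8%, to 24.7% in *Postn*-/- replicate 3. In RPKM the ring genes together summed to 95.6, 132 and 76.5 in *Postn*-/- and to 219, 101 and 118 in *wt*. *Mcm6* gave 20.0% of this in *Postn*-/- replicate 2 and 11.8% in *Postn*-/- replicate 3.

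The ratio of *Cdt1*, the loader, to *Gmnn*, its inhibitor, was 0.700, 0.696 and 0.585 in *Postn*-/- against 0.463, 0.457 and 0.495 in *wt*, in RPKM. The genotypes did not overlap, with means of 0.660 ± 0.0655 and 0.472 ± 0.0203 (SD, n = 3 each). Of the 45 ratios between members, 6 (13.3%) did not overlap, *Cdt1* being in 4 of them and *Gmnn* in 2. Single genes were apart about as often, 6.57% of all genes with *Postn*-/- lower and 7.03% with it higher, so the count sets these ratios apart in no way. *Mcm5*, *Mcm7* and *Mcm10* were lower relative to *Cdt1* in each *Postn*-/- sample, and *Mcm2* was higher relative to *Gmnn*. The last of the 6 was *Mcm3* over *Mcm10*, at 14.9 to 15.8 in *Postn*-/- and 13.1 to 14.1 in *wt*. These pairs share genes and were picked from 45, so the ratios are given as a description with no test.

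**Figure D3:**
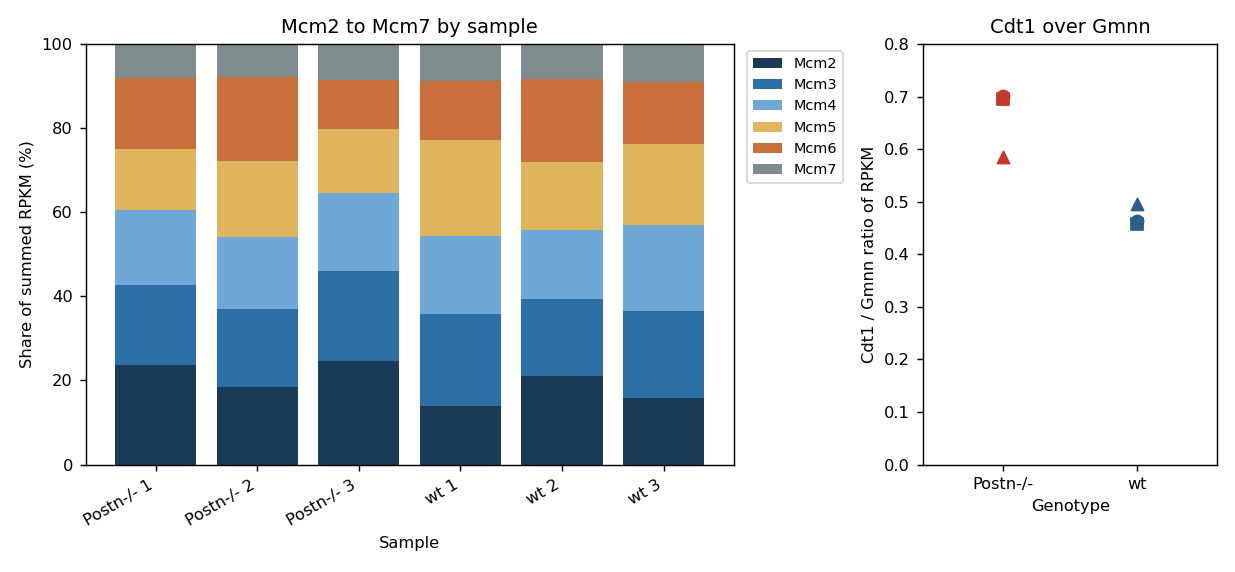
Left, share of each ring gene in the summed RPKM of *Mcm2* to *Mcm7* in each sample (bars, percent). Right, ratio of *Cdt1* to *Gmnn* RPKM in each *Postn*-/- (red) and *wt* (blue) sample, with circles, squares and triangles for replicates 1, 2 and 3; the knockout samples lie at 0.585 to 0.700 and the *wt* samples at 0.457 to 0.495.

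The other genes of the replication pathway were read from the same edgeR fit in lists by function, and 0 of their genes passed the adjusted threshold. The origin recognition complex and its partners, which act before the members, varied less as a group. All 8 genes were fitted lower in *Postn*-/-, with a median log2 fold change of -0.12, and 0 had an unadjusted p of 0.05 or less. Without *wt* replicate 1 the median was -0.06, with 5 of 8 lower, and without *wt* replicate 3 it was -0.23. Without *Postn*-/- replicate 2 the count at such a p was 2 of 8, against 7.73% of all genes in either direction. *Orc3* was at 88.5, 88.1 and 89.6 CPM in *Postn*-/- against 89.4, 91.6 and 97.6 in *wt*. *Orc1*, the largest subunit, was the exception, with 5.67, 5.65 and 5.96 CPM in *Postn*-/- against 10.996, 4.12 and 6.23 in *wt*, a 2.67-fold span that was wider than those of *Mcm2* and *Cdt1*. *Orc6*, with the lowest unadjusted p of the list (0.117 from edgeR), was at 42.2, 59.5 and 42.3 in *Postn*-/- and 72.6, 53.6 and 53.6 in *wt*. The list's mean gene-centred level spanned 0.38 log2 units over the samples, against 1.66 for the licensing members.

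Among 13 origin firing genes 12 were fitted lower (median -0.28), and 2 were lower at an unadjusted p of 0.05 or less in edgeR's test, as were 2.35% of all genes. Without *wt* replicate 1 the median was -0.13, 10 were lower and 1 of them, *Mtbp*, had such a p. In that fit 5.44% of all genes had such a p in either direction. *Cdc7*, the kinase that phosphorylates the MCM ring, was at 5.63, 9.19 and 5.004 CPM in *Postn*-/- against 16.6, 9.77 and 10.7 in *wt*, with no overlap. In edgeR it had a log2 fold change of -0.90 (standard error 0.30, adjusted p = 0.717, unadjusted p = 0.0164). *Mtbp*, a partner of the firing factor TICRR, was at 24.1, 31.5 and 28.1 CPM in *Postn*-/- against 38.3, 33.9 and 36.6 in *wt*, again apart, with a log2 fold change of -0.38 (adjusted p = 0.717, unadjusted p = 0.0196, from edgeR). *Donson*, a helicase assembly factor, was apart in the opposite direction, at 2.45, 3.17 and 3.19 CPM against 2.27, 2.44 and 2.204. The genotypes were thus apart for 2 of the 13 genes with *Postn*-/- lower and 1 with it higher, against 6.57% and 7.03% of all genes.

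Of 7 genes for CDT1 destruction and MCM unloading, 6 were fitted lower (median -0.24, and -0.13 without *wt* replicate 1). At an unadjusted p of 0.05 or less 1 was lower in edgeR, against 2.35% of all genes. The count was 3 without *wt* replicate 2, 3 in DESeq2, 3 without a filter and 4 in voomWithQualityWeights with surrogate variables. In these fits 8.71%, 6.01%, 5.24% and 12.9% of all genes had such a p in either direction. *Pcna* is counted both here and among the fork genes below. *Skp2*, the F-box protein that marks CDT1 for degradation, had an unadjusted p of 0.0356 (adjusted p = 0.717 from edgeR), with 15.8, 17.8 and 14.2 CPM in *Postn*-/- and 28.2, 18.0 and 20.5 in *wt*. Its unadjusted p was 0.118 without *wt* replicate 1 (edgeR). *Ddb1*, an adaptor of the CUL4 ligase, was the most abundant, at 842 to 920 CPM in *Postn*-/- and 986 to 1113 in *wt*. The genotypes were thus apart for both, as 6.57% of all genes were with *Postn*-/- lower, and 1 further gene of the 7 was apart with it higher, as were 7.03% of all genes.

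All 23 genes of the replication fork were fitted lower, with a median of -0.38, 3 of them at an unadjusted p of 0.05 or less, against 2.35% of all genes. Without *wt* replicate 1 the median was -0.13, 19 of the 23 were lower and 0 had such a p in edgeR's test. Without *wt* replicate 2 the count went the other way, to 15 of 23 with a median of -0.53, and without *Postn*-/- replicate 2 to 7. In these fits 8.71% and 7.73% of all genes had such a p in either direction. *Fen1*, the flap nuclease of lagging strands, had the lowest unadjusted p (0.0244, adjusted p = 0.717 from edgeR), at 1.33, 3.09 and 1.57 CPM in *Postn*-/- against 5.92, 3.17 and 3.59 in *wt*. *Rpa1*, which coats single-stranded DNA and was the most abundant, overlapped at 186, 179 and 154 CPM against 279, 136 and 191. Each of 7 nucleotide supply genes was fitted lower (median -0.57), and 0 had an unadjusted p of 0.05 or less. Without *wt* replicate 1 the median was -0.15, with *Rrm2* turned to 0.12 and *Tyms* at -0.21. Without *wt* replicate 2 it was -0.80, and 4 of the 7 had an unadjusted p of 0.05 or less. As in the fork list, the share of all genes with such a p in that fit was 8.71%. *Tyms*, thymidylate synthase, was at 34.3, 45.1 and 38.1 CPM in *Postn*-/- against 82.3, 40.0 and 50.5 in *wt*. *Rrm2*, the regulated subunit of ribonucleotide reductase, was at 127, 301 and 124 against 500, 150.3 and 187. In 22 of the 23 fork genes and 6 of the 7 supply genes *wt* replicate 1 was again the highest sample.

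The E2F factors and pocket proteins, which set transcription of the members, split between the directions. Of 13 genes 8 were fitted lower and 5 higher (median -0.04), while without *wt* replicate 1 the median was 0.10, with 5 lower and 8 higher. In the fit of all samples 2 had an unadjusted p of 0.05 or less, both higher in *Postn*-/-, as did 3.95% of all genes. This split depended on the fit, with 2 lower and 2 higher in DESeq2, in both voomWithQualityWeights fits and without *Postn*-/- replicate 2, 2 lower and 1 higher without a filter, and 3 lower and 1 higher without *wt* replicate 2. Such a p, in either direction, was held by 6.01% of all genes in DESeq2 and by 7.73% without *Postn*-/- replicate 2. The share was 9.20% and 12.9% in voomWithQualityWeights without and with surrogate variables, 5.24% without a filter and 8.71% without *wt* replicate 2. Without *wt* replicate 1 the split stayed at 0 lower and 2 higher, when 5.44% of all genes had such a p. *Rbl2*, the pocket protein p130 of resting cells, was at 22.2, 20.4 and 21.3 CPM in *Postn*-/- against 15.5, 14.3 and 15.0 in *wt*, with genotypes well apart. In edgeR it had a log2 fold change of 0.51 (standard error 0.12, adjusted p = 0.717, unadjusted p = 0.00242). Without *wt* replicate 1 this was 0.54 (adjusted p = 0.833, unadjusted p = 0.00382, from edgeR). *Rb1*, the retinoblastoma protein, was at 9.52, 7.28 and 8.43 CPM in *Postn*-/- against 6.73, 5.88 and 5.85 in *wt* (log2 fold change 0.45, adjusted p = 0.717, unadjusted p = 0.0358, from edgeR). Without *wt* replicate 1 its log2 fold change was 0.52. *Rbl1*, the third pocket protein gene, overlapped, with a log2 fold change of -0.04. The largest fitted changes of the list were lower, *E2f8* at -0.79 and *E2f7* at -0.75, or -0.46 and -0.47 without that sample. The genotypes were apart for 1 of the 13 genes with *Postn*-/- lower, *E2f2*, and 3 with it higher. Over all genes these shares were 6.57% and 7.03%. *Tfdp1*, the dimer partner and most abundant of the list, was at 31.8 to 38.2 in *Postn*-/- and 37.3 to 46.4 in *wt*. Of the MCM relatives outside the ring, *Mcm8*, a recombination helicase, was at 8.96, 9.52 and 5.77 CPM in *Postn*-/- against 12.5, 7.78 and 11.3 in *wt*, and 0 of the 3 had an unadjusted p of 0.05 or less in edgeR's test. Their median was -0.11, and -0.18 without *wt* replicate 1. It turned positive without *Postn*-/- replicate 1 (0.04) and without *wt* replicate 3 (0.14), each time with 2 of 3 higher.

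**Figure D4:**
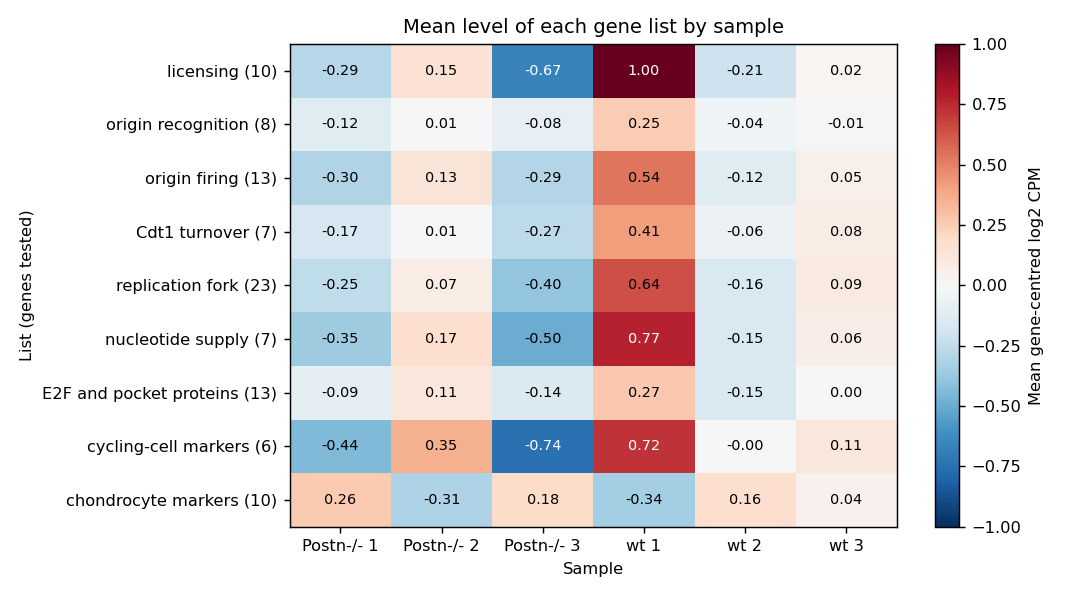
Mean gene-centred log2 CPM of each gene list (rows, number of genes tested in brackets) in each sample (columns). The licensing genes run from -0.67 in *Postn*-/- replicate 3 to 1.00 in *wt* replicate 1, the origin recognition genes from -0.12 to 0.25, and the chondrocyte markers are lowest in *wt* replicate 1 and *Postn*-/- replicate 2.

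Genes whose 6-sample profile was most like the mean profile of the members were sought among 10014 non-members with a mean of at least 5 CPM. The measure was the root mean square difference of gene-centred log2 CPM, which had a median of 0.53 over these genes. The 8 nearest were *Ercc6l* (0.066), *Rrm1* (0.071), *Xrcc3* (0.076), *Hells* (0.076), *Tacc3* (0.086), *Stmn1* (0.090), *Wdhd1* (0.095) and *Rad54l* (0.095). *Ercc6l*, a mitotic DNA translocase, was at 9.44, 13.2 and 8.10 CPM in *Postn*-/- against 26.4, 10.7 and 12.7 in *wt*. Of the members themselves *Mcm7* lay closest to the mean profile (0.057) and *Mcm2* farthest from it (0.33). *Prkdc*, the DNA-dependent protein kinase gene, is the only gene in the annotation with a start within 1000 bases of a member's in head-to-head orientation, 466 bases from that of *Mcm4*. It was looked at after the values were seen. *Prkdc* was at 10.8, 14.8 and 11.5 CPM in *Postn*-/- against 10.4, 12.8 and 14.6 in *wt*, lowest in the sample where *Mcm4* was highest.

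Across the samples the summed chondrocyte markers ran nearly opposite to the members, and the cycling-cell markers followed them in part. The highest sample was *wt* replicate 1 for 4 of the 6 cycling-cell markers, against 24.6% of all genes tested. The others, *Mki67* and *Ccna2*, were highest in *Postn*-/- replicate 2, at 31.2 and 25.0 CPM. In *wt* replicate 1 they were at 30.3 and 20.1. *Ccna2* had a log2 fold change of -0.03, and 0.19 without *wt* replicate 1. *Top2a*, the topoisomerase of dividing cells, was at 98.7, 169 and 63.0 CPM in *Postn*-/- against 262, 158 and 151 in *wt* (log2 fold change -0.79, adjusted p = 0.717 from edgeR). All 6 cycling-cell markers were fitted lower, 5 of them also without *wt* replicate 1. Their median was -0.56, and -0.34 without that sample, with 0 at an unadjusted p of 0.05 or less in either edgeR fit. Without *Postn*-/- replicate 2 it was -0.98, with 4 of 6 at such a p, against 7.73% of all genes in either direction. The count was 2 in DESeq2, 4 in edgeR without a filter and 4 in voomWithQualityWeights with surrogate variables. In these fits the share of all genes was 6.01%, 5.24% and 12.9%. The 10 members summed to 420, 562 and 316 CPM in *Postn*-/- replicates 1, 2 and 3 and to 970, 442 and 500.2 in the *wt* replicates. The 10 chondrocyte markers, all of them detected, summed to 46717, 35031 and 45371 in *Postn*-/- and to 29768, 42807 and 36991 in *wt*. The samples with the highest members, *wt* replicate 1 and then *Postn*-/- replicate 2, were thus the lowest and second lowest for this sum, which a few abundant collagen and matrix genes dominate. Gene by gene, *wt* replicate 1 was the lowest sample for 5 of the 10 markers and *Postn*-/- replicate 2 for the other 5. Between the genotypes the 10 markers went both ways, with 4 fitted lower, 6 higher and a median of 0.11, which was -0.05 without *wt* replicate 1. *Col2a1*, the main cartilage collagen, was at 15767, 13696 and 18081 CPM in *Postn*-/- against 8271, 11867 and 9567 in *wt*, apart between the genotypes (log2 fold change 0.68, adjusted p = 0.717, unadjusted p = 0.0125, from edgeR). *Cnmd*, the gene for chondromodulin, was apart in the opposite direction, at 4693, 3542 and 4702 CPM against 5071, 4968 and 5781. The part of these markers in the differences of the members was not tested.

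Markers of other cell types were at lower levels. Fibroblast markers summed to 1573 to 3058 CPM in *Postn*-/- and 1696 to 4261 in *wt*, led by *Col1a2*, with 6 of 7 high enough to be tested and *Thy1* too low. Bone markers, 5 of 6 tested and led by *Ibsp*, summed to 830 to 1014 and 708 to 1413. Among 7 blood markers 4 were tested, *Cd68* at 13.7 to 22.9 and 5.29 to 17.9 CPM having the highest mean, and the T cell and red cell genes *Cd3e*, *Hbb-bs* and *Hba-a1* were at 0 to 0.334 CPM. *Ptprc*, the pan-leukocyte gene CD45, was present at 4.46 to 6.43 CPM in *Postn*-/- and 2.90 to 5.85 in *wt*. The myeloid genes *Lyz2* and *Csf1r* were at 7.20 to 27.5 and 1.05 to 1.83 in *Postn*-/- and at 5.81 to 14.2 and 1.10 to 1.27 in *wt*. *Pecam1* led the endothelial markers, 3 of 5 tested, at 2.81 to 4.05 CPM in *Postn*-/- and 2.22 to 4.6 in *wt*. All 4 tested blood markers and all 3 endothelial markers were fitted higher in *Postn*-/-, with medians of 0.47 and 0.45, or 0.36 and 0.17 without *wt* replicate 1. The fibroblast median was 0.21 with 4 of 6 higher, and 0.51 without that sample, and the bone median was 0.01 and -0.05. Without *Postn*-/- replicate 1 the fibroblast median was -0.07, and without *wt* replicate 3 it was 0.008, with 3 of 6 higher each time. The endothelial median was 0.09 without *Postn*-/- replicate 3, with 1 of 2 tested genes higher. The lowest unadjusted p of each list in edgeR's test was 0.190 for *Prg4* (fibroblast list), 0.209 for *Cd68* (blood), 0.214 for *Emcn* (endothelial) and 0.398 for *Ctsk* (bone). *Prg4* is not specific to fibroblasts, so its values cannot be read as a fibroblast level. Without *wt* replicate 1 *Cd68* had a log2 fold change of 1.05 (adjusted p = 0.833, unadjusted p = 0.0231, from edgeR) and *Prg4* one of 1.25 (adjusted p = 0.833, unadjusted p = 0.0678, from edgeR). None of these 4 sums was highest in *wt* replicate 1. The endothelial sum (4.19) and the bone sum (708) were lowest in *wt* replicate 1, as the chondrocyte sum was, and the fibroblast and blood sums were not. The part of these markers in the differences of the members was not tested.

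**Figure D5:**
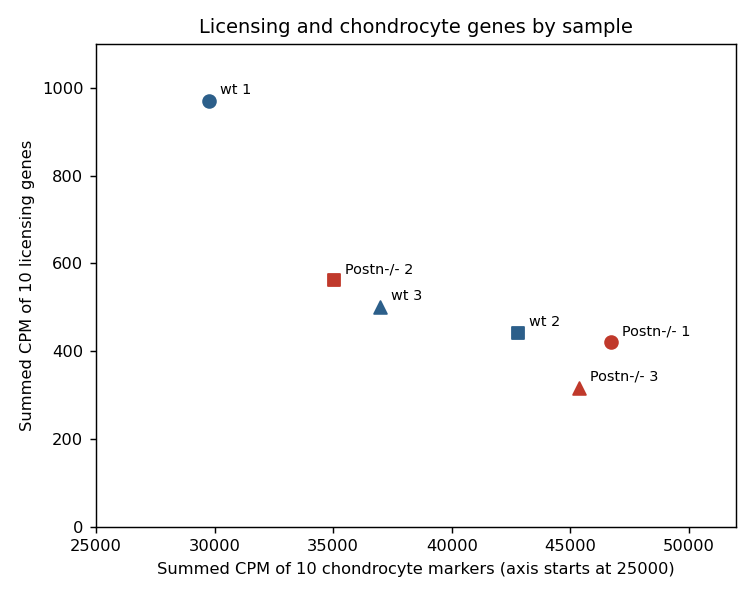
Summed CPM of the 10 licensing genes (vertical axis) against the summed CPM of the 10 chondrocyte markers (horizontal axis, which does not start at 0) in each *Postn*-/- (red) and *wt* (blue) sample. *wt* replicate 1 has the highest licensing sum, 970, and the lowest marker sum, 29768.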

How the data were processed

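The authors aligned 50-base single-end reads of SMARTer cDNA libraries with STAR 2.0.4b to Ensembl release 76 and used featureCounts 1.4.5 to count reads that aligned once and to 1 gene; use of strand is not given in the sources used here. They deposited raw counts, CPM (the count scaled by the sample's total, in the authors' files) and RPKM (the same scaled by the gene length they give). The processing notes name mm9, but 98.8% of matched gene starts lie within 10000 bases of those in GENCODE M21 (GRCm38), which gave symbols for 97.5% of identifiers.

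The test covered 14533 genes, those above 1 CPM in 2 or more samples without 355 rRNA genes. It used TMM normalization and edgeR 4.0.16 (R 4.3.3), with the quasi-likelihood test of *Postn*-/- over *wt* without covariates, with Benjamini-Hochberg adjustment over all genes. Standard errors were derived from the F statistic and the log2 fold change. The procedure was tested on simulated data. RPKM was used only for levels between genes. Log2 CPM used a prior count of 2. Alternatives used DESeq2 1.42.0, limma 3.58.1 and sva 3.50.0. Libraries were checked for duplicates; chi-square per degree of freedom was 31.2 or more for all 15 pairs. Samples come from separate mice.

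The members and lists were chosen with earlier results of these data known. Named were the members, *Postn*, the gene with the lowest p and the most abundant gene of each list, and the 8 genes nearest in profile. *Rb1*, *Rbl1*, *E2f2*, *E2f7*, *E2f8*, *Pcna*, *Prkdc*, *Orc1*, *Cnmd*, *Donson*, *Ptprc*, *Lyz2*, *Csf1r*, *Thy1*, *Cd3e*, *Hbb-bs*, *Hba-a1*, *Mki67* and *Ccna2* were added after values were seen.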

Additional observations from a re-analysis of the deposited data

How the results depend on the processing

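Under each of the 15 alternatives 0 of the 10 members passed the adjusted threshold, with adjusted p between 0.290 and 0.998; at an unadjusted p of 0.05 or less the main edgeR fit had 1 member (6.30% of all genes), DESeq2's Wald test 5 (6.01%), voomWithQualityWeights 1 without (9.20%) and 7 with surrogate variables (12.9%), and edgeR without a filter 7 (5.24%). Leaving out 1 sample gave 0 (*Postn*-/- replicate 1 or 3, *wt* replicate 1), 1 (*wt* replicate 3), 5 (*Postn*-/- replicate 2; 7.73% of all genes) or 7 (*wt* replicate 2; 8.71%). The median log2 fold change of the members ran from -0.69 to -0.50 with all samples and from -0.89 to -0.15 with 1 left out, -0.15 being without *wt* replicate 1. *Mcm2* was at 0.020 with voomWithQualityWeights without surrogate variables and at -0.27 to 0.13 with 1 sample left out, and *Cdt1* at -0.50 to 0.12. Of 23 replication fork genes 3 had an unadjusted p of 0.05 or less in the main fit, 10 without a filter, 6 with DESeq2, 4 without and 9 with surrogate variables, and 0 (*Postn*-/- replicate 1 or 3 or *wt* replicate 1 left out) to 15 (*wt* replicate 2 left out) with 1 sample left out. For the 7 nucleotide supply genes these counts were 0, 4, 3, 0, 4 and 0 to 4, and for the 13 origin firing genes 2, 5, 3, 2, 5 and 0 to 5. *Postn* kept its direction under each alternative. Genes past the adjusted threshold numbered 2 in the main fit, 1 with upper quartile normalization, 9 without a filter, 10 with DESeq2, 1 without and 3 with surrogate variables in voomWithQualityWeights, and 1 to 2 with 1 sample left out. With CPM above 1 required in all 6 samples edgeR called 0 genes, with 806 at an unadjusted p of 0.05 or less. With the replicate number as a block edgeR called 1 gene, and the members' median was -0.58. Deviations from the group means of same-numbered samples correlated at 0.082, 0.155 and 0.143 across genes; each sample correlated best with its own number, a hint from the data only, since the labels do not tie the numbers together.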
